A study of Mus musculus with 12 samples.

Results

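The transcripts described here are those of 35 genes of the cardiac sarcomere and Z-disc, listed by name, in the RNA of exosomes released by HL-1 cardiomyocytes. HL-1 is a line of mouse atrial cardiomyocytes, so all samples stem from 1 line and stand for no ventricular or diseased heart. Of the 35 genes, 32 had at least 1 probe on the array, with 47 of its 25696 probes. Tnnt2, Smpx and Flnc, which encode cardiac troponin T, a small muscle protein and filamin C, had no probe assigned and were not analysed here.

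The study asked whether growth factors given to cardiomyocytes change the mRNA that their exosomes carry. Exosomes were collected from 12 cultures after 23 h in serum-free medium. The control group of 4 samples received no growth factor, the TGF-β2 group of 4 samples received 10 ng/mL TGF-β2, and the PDGF-BB group of 4 samples received 100 ng/mL PDGF-BB. Each sample was the exosomes of 1 culture flask, hybridised to 1 array of an Illumina MouseRef-8 BeadChip, and p-values therefore measure the spread between flasks of 1 cell line.

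The sarcomere is the contractile unit of striated muscle. Thick filaments of myosin, each made of heavy chains with light chains at their necks, slide along thin filaments of actin, tropomyosin and troponin. The thin filaments are anchored in the Z-disc, where α-actinin and a set of adaptor proteins also hold the end of the giant protein titin, which spans from the Z-disc to the middle of the sarcomere. The atrium and the ventricle use different myosin light chains. Myl4 encodes the atrial essential light chain and Myl7 the atrial regulatory light chain, while Myl3 and Myl2 encode their ventricular counterparts.

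A probe was called detected on an array when its detection p-value, the rank of its signal among the negative control beads of that array, was under 0.01. A gene was called detected on an array when any of its probes was. The number of arrays per gene was that of its best probe, which for every gene of the set equalled the number by any probe. The arrays differed widely in this measure, with 294 to 1506 probes detected. The 3 highest numbers were those of TGF-β2 sample 3, control sample 3 and PDGF-BB sample 3, and the lowest was that of PDGF-BB sample 4. The log2 intensities of PDGF-BB sample 1 and control sample 1 correlated least with the other arrays, with medians of 0.43 and 0.582 against 0.684 to 0.82 for the other 10 arrays. The samples lay on 2 chips, each group being split evenly between them, and chip 1 is the one with control samples 2 and 3. By the array names, control samples were on arrays A and B of each chip. TGF-β2 samples were on C and D, and PDGF-BB samples on E and F. Differences between groups and between these places on the chip therefore cannot be told apart. In exosome RNA, fewer vesicles and less of a transcript per vesicle cannot be told apart.

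Few of the contractile transcripts exceeded the negative control beads, and those that did most often were the atrial light chains and titin. Of the 32 genes, 8 were detected on at least 1 array, 25.0% against 17.3% of the 16593 named genes on the array. On at least 3 arrays 5 genes were detected, 15.6% against 5.80% of named genes. These were Myl4, Myl7, Ttn, Ldb3 and Myh6. The remaining 3 were Ankrd1, Tpm1 and Myom1, each found on 1 or 2 arrays, and 24 genes were detected on none of the 12 arrays.

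No gene of the set was detected on all 12 arrays, where 0.145% of named genes were. Myl4 was the 1 gene of the set detected on all 4 control arrays, where 0.512% of named genes were, and on all 4 TGF-β2 arrays, where 0.934% were. On all 4 PDGF-BB arrays 0 genes of the set were detected, beside 0.211% of named genes. An array held 1 to 6 detected genes of the set. The group means were 2.25 ± 1.26 (SD, n = 4) for control, 3.75 ± 2.22 (SD, n = 4) for TGF-β2 and 2.50 ± 1.29 (SD, n = 4) for PDGF-BB, so that the groups overlapped. As a mean share of the 32 genes this was 7.03%, 11.7% and 7.81%, while the shares of all named genes were 3.97%, 4.74% and 2.82%. TGF-β2 sample 3 had both the most detected genes of the set, 6, and the most detected probes.

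Counted over probes and arrays, 35 of 564 pairs of a probe of the set and an array were detected, 6.21% against 2.80% for all probes of the array. Probes of olfactory and vomeronasal receptor genes, which heart muscle is not known for, were detected in 248 of 15636 such pairs, or 1.59%. Of the 35 pairs of the set, 30 came from the 5 probes detected on at least 3 arrays. The other 42 probes of the set gave 5 of 504 pairs, or 0.992%, a share kept low because the probes were divided by detection itself.

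**Figure D1:**
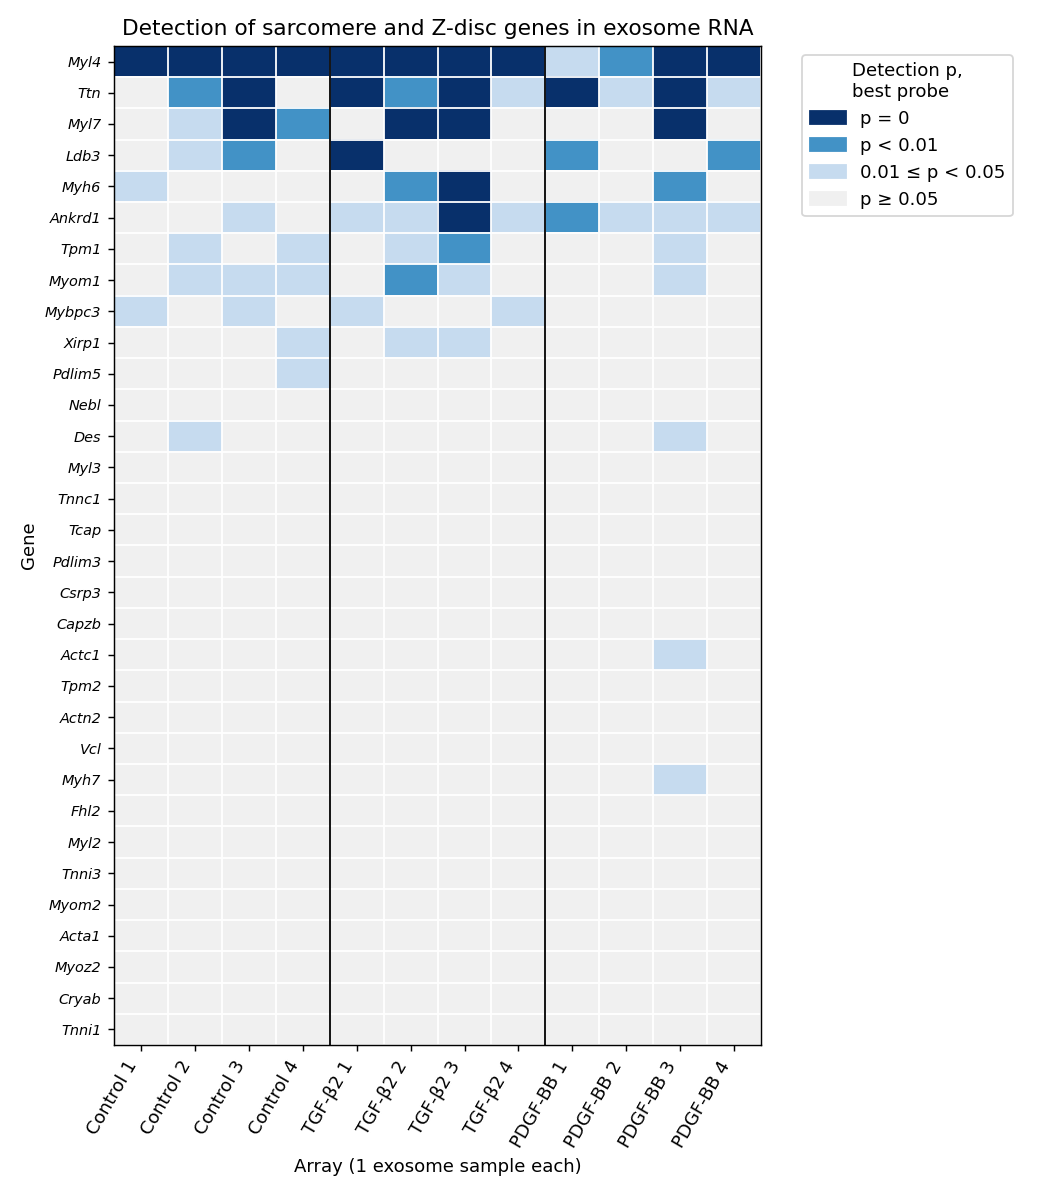
Detection p-value of the best probe of each of the 32 sarcomere and Z-disc genes with a probe (rows, ordered by how often they were detected) on the 12 arrays (columns, in groups of 4); the 2 darkest shades, a p of 0 and a p under 0.01, count as detected. Myl4 is in these shades on 11 arrays, Ttn on 7, Myl7 on 5, Ldb3 on 4 and Myh6 on 3, and the rows of Myl2 and Myl3 stay in the palest shade.

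The 4 light chain genes carry the contrast between atrial and ventricular forms, and their promoters are shown here because several contractile genes are known to be controlled through the CArG box, the DNA element bound by serum response factor. The 100 bases before the annotated start of each gene are given on the gene's strand from RefSeq on GRCm38.p6, with capitals marking a CArG box. The windows lie at chr11:104550563-104550662 on the plus strand for Myl4, chr11:5898783-5898882 on the minus strand for Myl7, chr5:122092624-122092723 on the plus strand for Myl2 and chr9:110763578-110763677 on the plus strand for Myl3.
Myl4: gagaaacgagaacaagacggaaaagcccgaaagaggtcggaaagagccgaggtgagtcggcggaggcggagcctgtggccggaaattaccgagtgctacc
Myl7: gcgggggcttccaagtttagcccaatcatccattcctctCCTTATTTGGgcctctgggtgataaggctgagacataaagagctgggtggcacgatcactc
Myl2: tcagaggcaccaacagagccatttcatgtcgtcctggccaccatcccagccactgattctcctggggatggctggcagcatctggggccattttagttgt
Myl3: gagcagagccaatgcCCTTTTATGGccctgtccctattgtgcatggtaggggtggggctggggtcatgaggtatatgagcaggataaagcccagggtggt

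The box of Myl7 began 61 bases before the start and that of Myl3 began 85 bases before it, so 1 atrial and 1 ventricular gene held one in these windows. The only window given for Myl4 lies before an annotated start 4646 bases inside the gene, and it does not show the sequence before the gene's first start. In windows of 250 bases before the start, read on both strands, 9 of the 31 genes of the set with a window held a CArG box, or 29.0%, against 439 of 27025 genes, or 1.62%. These were Acta1, Actc1, Fhl2, Ldb3, Myl3, Myl7, Myom1, Nebl and Vcl, of which Ldb3, Myl7 and Myom1 were detected on an array. A match of letters is a description of the sequence and not a site shown to be bound.

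Both atrial light chains were detected in the exosome RNA and neither ventricular one was. Myl4 was detected on 11 arrays, a reach shared by 0.337% of named genes, and Myl7 on 5, reached by 2.77%. Myl2 and Myl3 were detected on 0 of 12 arrays, and their lowest detection p-values on any array were 0.294 and 0.118. Because probes differ in how strongly they respond, signals of different probes were not compared, and each gene had 1 probe here.

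The background-subtracted signal of Myl4 was 107, 615, 509.8 and 261 in control samples 1 to 4. With TGF-β2 the samples gave 252, 450.5, 649 and 209.8, and with PDGF-BB they gave 72.8, 82.1, 929 and 135, in the same order. The highest and the lowest value were both in the PDGF-BB group, and PDGF-BB sample 1, at a detection p-value of 0.0138, was the only array without detection. Set against the lowest signal called detected on the same array, Myl4 stood 1.36 to 16 times higher on the 11 arrays that detected it. Its median rank among the 25696 probes was 50, and it ranged from 31 to 611, with the last in PDGF-BB sample 1.

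The signal of Myl7 was 17, 58.7, 157 and 76.3 in control samples 1 to 4, with detection in samples 3 and 4. In TGF-β2 samples 1 to 4 it was 15.1, 97.7, 253 and 32.2, with detection in samples 2 and 3, and in PDGF-BB samples 1 to 4 it was −17.5, 4.6, 204 and 23.6, with detection in sample 3 alone. Within each group the highest value of Myl7 was thus on sample 3, which was also the array of that group with the most detected probes. Of the 5 arrays with detection, 4 lay on chip 2 and 1 on chip 1, while Myl4 was detected on 6 and 5 arrays of those chips.

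The signal of Myl2 was −3.37, −20.7, 17.8 and −15.7 in control samples 1 to 4. It was 9.80, 8.49, −0.42 and −7.09 after TGF-β2 and −3.41, −14.4, −18.8 and −15.1 after PDGF-BB, again in samples 1 to 4. Values above and below zero occurred in the control and TGF-β2 groups, and all 4 PDGF-BB values were below zero. The signal of Myl3 was 18.2, 16.1, −2.99 and 24.4 in control samples 1 to 4. With TGF-β2 the samples gave 17, −18.9, −2.35 and −20.5, and with PDGF-BB they gave 30.2, 14.5, 31.9 and 27.7, in the same order. All 4 PDGF-BB values of Myl3 were positive, but the best of the 12 reached 0.549 of the lowest signal called detected on its array. Neither probe passed the filter for the comparison of groups.

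**Figure D2:**
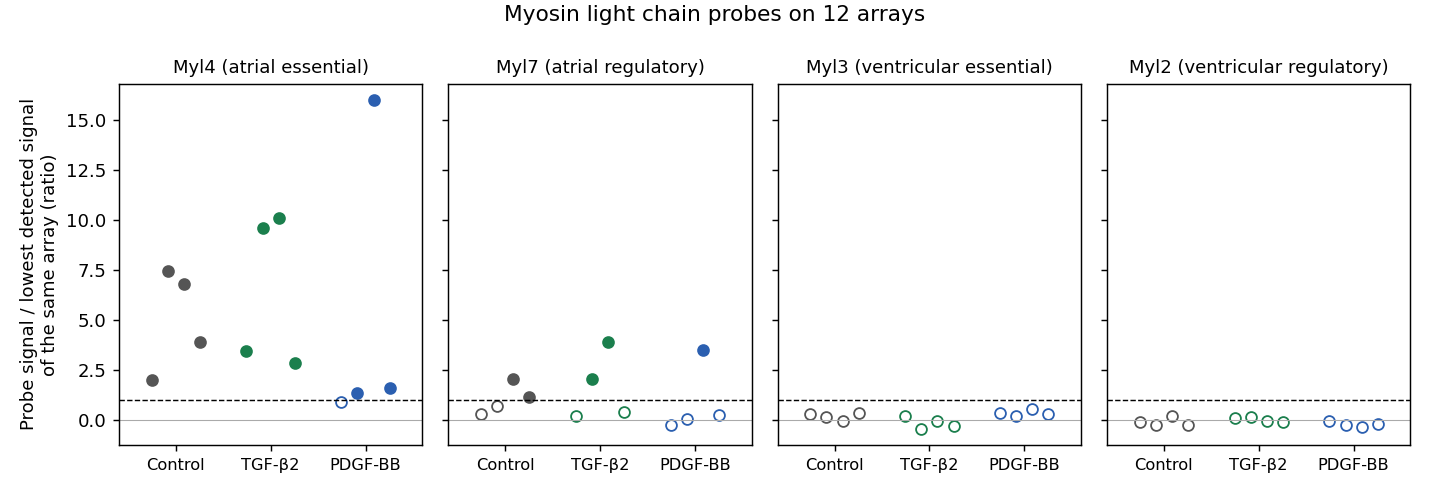
Signal of the probes of Myl4, Myl7, Myl3 and Myl2 divided by the lowest signal called detected on the same array (vertical axis, a ratio), with 1 point per array in each group; filled points were detected, open points were not, and the dashed line marks a ratio of 1. Myl4 reaches 16 in PDGF-BB sample 3 and Myl7 reaches 3.94 in TGF-β2 sample 3, while every point of Myl3 and Myl2 is open and below the dashed line.

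Among the other thick filament and titin transcripts, titin was the one found most often. Ttn was detected on 7 arrays, 4 of chip 1 and 3 of chip 2. Its signal was 40.6, 119, 164 and 38.9 in control samples 1 to 4, with detection in samples 2 and 3. It was 108, 68.2, 166 and 68.7 in TGF-β2 samples 1 to 4, with detection in samples 1 to 3, and the PDGF-BB samples gave 113, 47.4, 118 and 61.8, with detection in samples 1 and 3. Each group held detected and undetected arrays.

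Myh6, the gene of the α-myosin heavy chain of atrial and adult mouse heart muscle, was detected on 3 arrays by 1 of its 2 probes. The signal of that probe was 50.6, 42.9, 14.7 and 38.0 in control samples 1 to 4, none of them detected. It was 40.5, 61.9, 93.8 and 23.0 in TGF-β2 samples 1 to 4, with detection in samples 2 and 3, and the PDGF-BB samples gave 35.3, 33.0, 83.9 and 31.8, with detection in sample 3. All 3 detections were on chip 2, and the other probe of Myh6 lay between −26.2 and 42.7 with detection on 0 arrays. Myh7, the β-myosin heavy chain, was detected on none, with a lowest detection p-value of 0.0451. Mybpc3, the cardiac myosin-binding protein C, was also detected on none, with a lowest p-value of 0.0263. Of the M-band genes that tie thick filaments together, Myom1 was detected in TGF-β2 sample 2 alone, at a detection p-value of 0.00125, and Myom2 on no array.

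The Z-disc was represented by Ldb3, which encodes the adaptor protein ZASP, also known as cypher. One of its 2 probes was detected on 4 arrays and the other was below zero on all 12. The signal of the first was 27.5, 66.3, 87.6 and 41.0 in control samples 1 to 4, with detection in sample 3. It was 129, 35.8, 37.1 and 50.9 in TGF-β2 samples 1 to 4, with detection in sample 1, and the PDGF-BB samples gave 95.3, 32.7, 33.1 and 91.6, with detection in samples 1 and 4. All 4 detections were on chip 1, where the median signal was 89.6 against 34.4 on chip 2, the reverse of Myl7 and Myh6. Since the probes of Ldb3 disagree, its values rest on 1 probe.

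Ankrd1, a stress-responsive protein of the titin I-band also called CARP, was the other Z-disc or titin partner found. One of its probes was detected in TGF-β2 sample 3 and PDGF-BB sample 1, with a highest signal of 91.6 in the latter, and the other in TGF-β2 sample 3 alone, with a signal of 110.0. Both probes thus met on 1 array. The Z-disc genes Actn2, Tcap, Csrp3, Myoz2, Nebl, Xirp1, Pdlim5, Pdlim3, Fhl2 and Vcl, the thin filament capping gene Capzb, and the genes of the intermediate filament desmin and its chaperone αB-crystallin, Des and Cryab, were detected on no array. Of these, Pdlim5 reached 0.01 and Des 0.0113 as their lowest detection p-values, just outside the threshold.

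Among the actin, tropomyosin and troponin genes of the thin filament, 1 was detected. Tpm1, the main striated muscle tropomyosin, was detected in TGF-β2 sample 3 alone, with a signal of 66.6 at a detection p-value of 0.00752, just inside the threshold. The actin genes Actc1 and Acta1, the troponin genes Tnni3, Tnni1 and Tnnc1, and the second tropomyosin gene Tpm2 were detected on 0 arrays. Actc1, cardiac α-actin, came to a detection p-value of 0.0489 at best.

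The 38 probes of the set that were detected on no array had signals from −119 to 78.4. Of them, 21 were below zero on at least 6 arrays, and Tnni1, Cryab and 1 probe each of Myom1, Ldb3, Pdlim3 and Capzb were below zero on all 12. The probes of the set rested on 10 to 66 beads per array, with a median of 41. At these signals a transcript could not be told from background, which does not show that it was absent from the exosomes.

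The 5 of the 47 probes that were detected on at least 3 arrays, where 4.28% of all probes were, were compared between the groups after quantile normalization, on the log2 scale. The log2 intensity of Myl4 was 8.79, 8.43, 7.91 and 8.02 in control samples 1 to 4. It was 8.62, 8.51, 7.61 and 8.30 after TGF-β2 and 5.19, 7.36, 8.62 and 8.13 after PDGF-BB, again in samples 1 to 4. The 2 lowest values were those of PDGF-BB samples 1 and 2, and the other PDGF-BB samples lay among the controls. The mean (± SD, n = 4 each) was 8.29 ± 0.40 in control samples, 8.26 ± 0.45 after TGF-β2 and 7.33 ± 1.51 after PDGF-BB.

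The log2 intensity of Myl7 was 4.76, 4.94, 5.88 and 5.56 in control samples 1 to 4. With TGF-β2 the samples gave 4.73, 5.91, 6.12 and 4.82, and with PDGF-BB they gave 4.59, 4.67, 6.48 and 4.75, in the same order. PDGF-BB sample 3 held the highest value and PDGF-BB sample 1 the lowest. The mean (± SD, n = 4 each) was 5.28 ± 0.53 in control samples, 5.39 ± 0.72 after TGF-β2 and 5.12 ± 0.91 after PDGF-BB, so that the means lay closer to each other than the samples within a group.

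The log2 intensity of Ttn was 5.0, 5.57, 5.97 and 4.89 in control samples 1 to 4. It was 6.69, 5.39, 5.54 and 5.17 after TGF-β2 and 8.45, 5.06, 5.65 and 5.06 after PDGF-BB, again in samples 1 to 4. One array, PDGF-BB sample 1, stood above all others. On that array the Ttn probe ranked 41 by signal, while in TGF-β2 sample 3 a larger signal ranked 353, and the normalized values follow the rank. The mean (± SD, n = 4 each) was 5.36 ± 0.51 in control samples, 5.70 ± 0.68 after TGF-β2 and 6.06 ± 1.62 after PDGF-BB.

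The Myh6 probe lay between 4.69 and 5.28 on the log2 scale on all 12 arrays. Its group means were 4.92 ± 0.24, 5.02 ± 0.24 and 4.94 ± 0.23 (SD, n = 4 each) for control, TGF-β2 and PDGF-BB. The log2 intensity of Ldb3 was 4.84, 4.99, 5.13 and 4.90 in control samples 1 to 4. With TGF-β2 the samples gave 7.20, 4.93, 4.81 and 4.96, and with PDGF-BB they gave 6.82, 4.87, 4.83 and 6.33, in the same order. The arrays of TGF-β2 sample 1 and PDGF-BB samples 1 and 4 stood above the rest, all of them on chip 1. The mean of Ldb3 (SD, n = 4 each) was 4.97 ± 0.12 without growth factor, 5.47 ± 1.15 after TGF-β2 and 5.71 ± 1.02 after PDGF-BB.

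**Figure D3:**
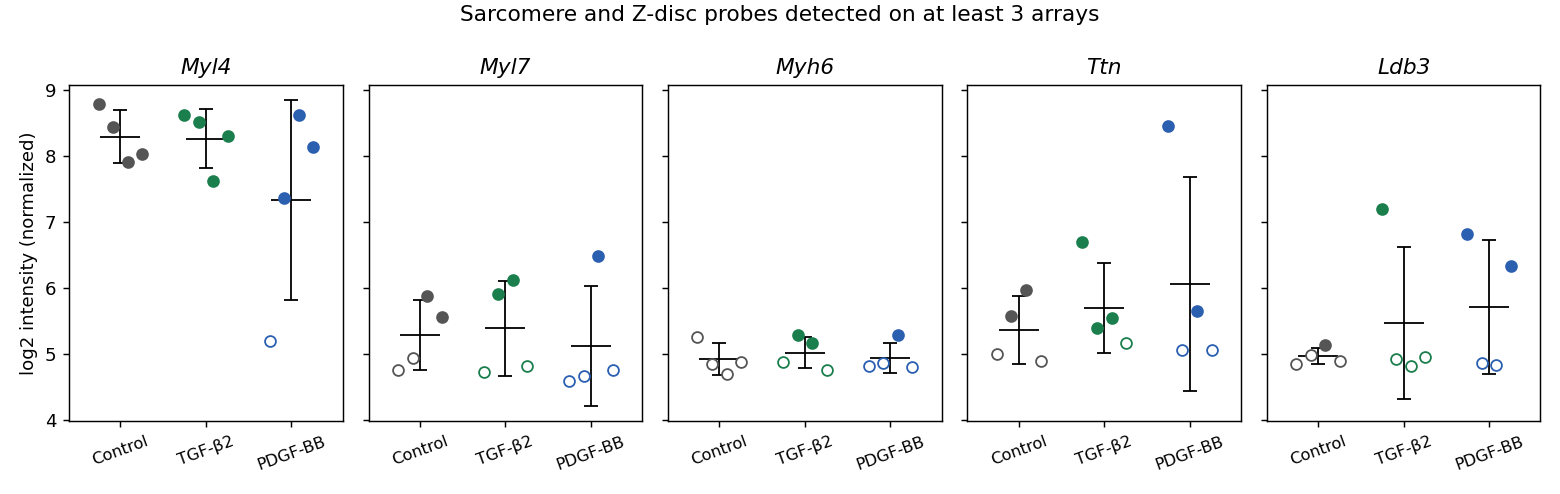
Log2 intensity after quantile normalization of the 5 probes detected on at least 3 arrays (Myl4, Myl7, Myh6, Ttn and Ldb3), with 1 point per array (filled where the probe was detected), a line at each group mean and bars of 1 SD (n = 4). The groups overlap for every probe shown, and the point of Ttn at 8.45 and that of Myl4 at 5.19 are both PDGF-BB sample 1.

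None of the 5 sarcomere and Z-disc probes tested was called different between exosomes of TGF-β2-treated and control cells in the fit of all 1099 probes (limma, Benjamini-Hochberg adjustment), and the other 42 probes were not in this fit. Of the 5 probes, 0 were called at an adjusted p under 0.05, as were 0% of all tested probes. At an unadjusted p under 0.05, 0 of the 5 were called, beside 8 of 1099, or 0.728%. Ldb3 had the largest difference, 0.51 ± 0.57 (SE) with a 95% confidence interval of −0.75 to 1.76 and an adjusted p of 1. Without TGF-β2 sample 1 it was −0.07, and it was 1.02 within chip 1 and −0.01 within chip 2.

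The differences of the other probes from control were smaller. Ttn differed by 0.34 ± 0.67 (SE), with an interval of −1.13 to 1.82. Myl7 differed by 0.11 ± 0.48, with an interval of −0.94 to 1.16, and its difference was −0.64 within chip 1 and 0.85 within chip 2. Myh6 differed by 0.10 ± 0.20 with an interval of −0.34 to 0.54, and Myl4 by −0.03 ± 0.60 with an interval of −1.35 to 1.30. Each of these had an adjusted p of 1. The median over the 5 was 0.11 with 4 positive, against 0.05 with 639 positive of all 1099 probes.

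After PDGF-BB the 5 probes also passed no threshold, although the intervals were wide. At an adjusted p under 0.05, 0 of 5 probes were called, as were 0% of all probes, and at an unadjusted p 0 of 5, beside 48 of 1099, or 4.37%. Myl4 had the largest difference from control, −0.96 ± 0.60 (SE) with a 95% confidence interval of −2.28 to 0.36 and an adjusted p of 0.854. It was −1.51 within chip 1 and −0.42 within chip 2. Without PDGF-BB sample 1, the array that failed to detect Myl4 and correlated least with the others, it was −0.25.

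Ldb3 and Ttn had differences of the opposite sign. Ldb3 differed by 0.75 ± 0.57 with an interval of −0.51 to 2.0 and an adjusted p of 0.90, and by 1.52 within chip 1 against −0.02 within chip 2. Ttn differed by 0.70 ± 0.67 with an interval of −0.77 to 2.18 and an adjusted p of 0.926, and by −0.10 without PDGF-BB sample 1. Myl7 and Myh6 differed by −0.16 ± 0.48 and 0.02 ± 0.20, with intervals of −1.21 to 0.89 and −0.42 to 0.46. The median over the 5 probes was 0.02 with 3 positive, against −0.06 with 455 positive of all 1099. The part of the chip and of PDGF-BB sample 1 in these differences was not tested.

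The 2 growth factor groups were compared directly as well. At an adjusted p under 0.05, 0 of 5 probes were called beside 0% of all probes, and at an unadjusted p 0 of 5 beside 52 of 1099, or 4.73%. Myl4 was 0.93 ± 0.60 (SE) higher on the log2 scale in TGF-β2 than in PDGF-BB exosomes, with a 95% confidence interval of −0.39 to 2.26 and an adjusted p of 0.83. The difference was 1.80 within chip 1 and 0.07 within chip 2. The other differences, TGF-β2 minus PDGF-BB, were −0.36 ± 0.67 for Ttn, 0.27 ± 0.48 for Myl7, −0.24 ± 0.57 for Ldb3 and 0.08 ± 0.20 for Myh6. Their intervals ran from −1.84 to 1.12 for Ttn, −0.78 to 1.32 for Myl7, −1.49 to 1.01 for Ldb3 and −0.36 to 0.52 for Myh6, with adjusted p-values of 0.868 to 0.911. Without PDGF-BB sample 1 the difference of Myl4 was 0.23 and that of Ttn was 0.46. The 3 comparisons share groups, so that their values are not independent of each other.

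Groups that did not overlap occurred for 0 of the 5 probes in each comparison. Over all 1099 probes they occurred for 0.637% between TGF-β2 and control, 1.73% between PDGF-BB and control and 1.91% between TGF-β2 and PDGF-BB. The interval of Myl4 for TGF-β2 minus control, at a standard error of 0.60, included changes of over 1 log2 unit in either direction. The median standard error over all tested probes was smaller, at 0.34.

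**Figure D4:**
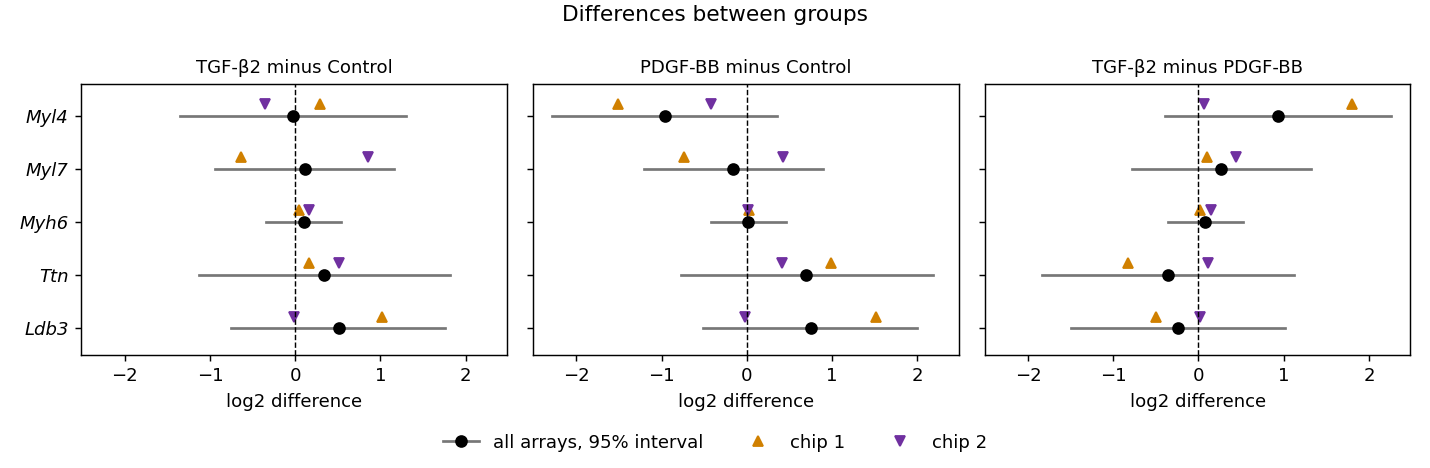
Differences in log2 intensity of the 5 tested probes for the 3 comparisons (TGF-β2 minus control, PDGF-BB minus control, TGF-β2 minus PDGF-BB), as points with 95% confidence intervals from the fit of all 12 arrays, together with the differences within chip 1 and within chip 2. Every interval includes 0, and the values within the chips lie apart for Myl7, Ldb3 and Myl4, with Myl7 at −0.64 and 0.85 for TGF-β2 minus control.

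Across the 12 arrays the signals of the atrial light chains moved together, and both moved with the number of probes detected on the array. Between the signals of Myl4 and Myl7, Pearson's r was 0.855 (two-sided permutation p = 0.00069, adjusted over 6 relations p = 0.00147) and Spearman's rho was 0.909 (permutation p = 0.00012, adjusted p = 0.00048). Without TGF-β2 sample 3 and PDGF-BB sample 3 r was 0.774. Within chip 1 r was 0.741 (exact permutation p = 0.0639) and within chip 2 it was 0.903 (exact permutation p = 0.0153). Each pair of values comes from the same array, and the part of the array's overall detection in this relation was not tested.

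The signal of Myl4 correlated with the number of detected probes at r = 0.84 (permutation p = 0.00098, adjusted p = 0.00147) and rho = 0.895 (permutation p = 0.00016, adjusted p = 0.00048). Without the same pair of arrays r was 0.88, and within the chips it was 0.853 and 0.821 (exact permutation p = 0.0347 and 0.0417). For Myl7 r was 0.931 (permutation p = 5e-05, adjusted p = 0.0003) and rho 0.846 (permutation p = 0.00086, adjusted p = 0.00151). Without the pair r was 0.88, and within the chips it was 0.906 and 0.948 (exact permutation p = 0.0153 and 0.00139). How closely other probes follow this number was not examined, so these relations do not set the light chains apart from other transcripts.

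On the normalized log2 scale the light chains parted. Between Myl4 and Myl7 r was 0.265 (permutation p = 0.461, adjusted p = 0.553) and rho 0.256 (permutation p = 0.418, adjusted p = 0.501), and r was −0.339 without PDGF-BB samples 1 and 2. Myl4 showed no relation to the number of detected probes that passed the test, with r = 0.177 (permutation p = 0.615, adjusted p = 0.615) and rho = 0.158 (permutation p = 0.62, adjusted p = 0.62). Without PDGF-BB samples 1 and 2 r was −0.453. Within the chips r was 0.242 and 0.208 between the light chains (exact permutation p = 0.485 and 0.651) and 0.251 and 0.00783 between Myl4 and the probes detected (exact permutation p = 0.61 and 0.99).

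Myl7 kept its relation after normalization, with r = 0.849 (permutation p = 0.00088, adjusted p = 0.00147) and rho = 0.839 (permutation p = 0.00101, adjusted p = 0.00151). Without the 2 arrays farthest from the median r was 0.814, and within the chips it was 0.898 and 0.842 (exact permutation p = 0.0139 and 0.0417). On the arrays without detection its log2 values lay between 4.59 and 4.94, so the relation rests mainly on the arrays that detected Myl7. The arrays on which Myl7 was detected thus included the arrays with most detected probes in each group. Whether other probes detected on few arrays show the same relation was not examined.

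**Figure D5:**
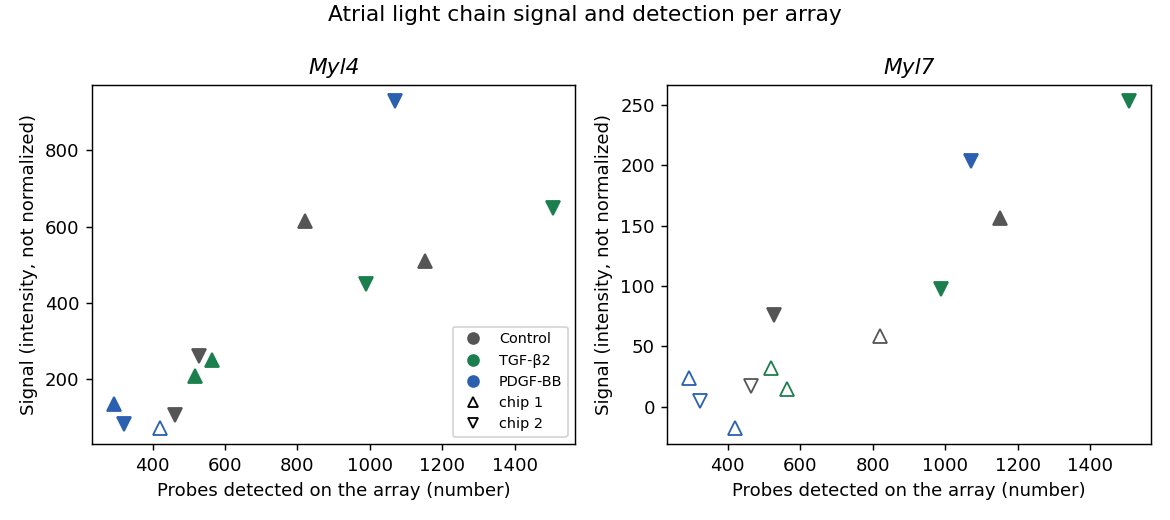
Background-subtracted signal of Myl4 and of Myl7 (vertical axes) against the number of probes detected on the array (horizontal axis), with 1 point per array, coloured by group, shaped by chip and filled where the probe was detected. Both signals are higher on arrays with more detected probes, with r = 0.84 for Myl4 and r = 0.931 for Myl7 over 12 arrays.

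Further genes of the contractile apparatus and the cytoskeleton were detected about as sparsely. Of 93 such genes, 76 had a probe, and 18 were detected on at least 1 array, where 17.3% of named genes were. On at least 3 arrays 8 were detected, or 10.5% against 5.80% of named genes. The list is not one of sarcomere and Z-disc genes alone, since it also holds genes of smooth muscle and non-muscle cells, such as Acta2, Actb and Actn4. Acta2, smooth muscle α-actin, was detected on 10 arrays, all 4 control, all 4 TGF-β2 and 2 PDGF-BB arrays. Myl1, an essential light chain of fast skeletal muscle, was detected on 7 arrays, and Csrp2, a LIM protein related to the Z-disc protein of Csrp3, on 6. The others were the actin-severing Cfl2 on 4 arrays, and Tpm3, Actn4, Actb and Obsl1 on 3 each. This list too was chosen with earlier results of these data known, and the part of that choice was not tested.

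Of the 9 probes of these 8 genes, 0 were called in any of the 3 comparisons at an adjusted p under 0.05. Their median differences were −0.09 for TGF-β2 minus control, −0.27 for PDGF-BB minus control and 0.17 for TGF-β2 minus PDGF-BB. The Acta2 probe detected on 10 arrays had group means of 7.34, 7.59 and 6.12 on the log2 scale for control, TGF-β2 and PDGF-BB. Its differences by this probe were −1.22 ± 0.53 (SE) for PDGF-BB minus control, with an unadjusted p of 0.0401 and an adjusted p of 0.82 (limma), and 1.47 ± 0.53 for TGF-β2 minus PDGF-BB, with an adjusted p of 0.83. The second tested probe of Acta2, detected on 6 arrays, did not show this, with means of 5.32, 5.45 and 5.27 and differences of −0.05 ± 0.43 (adjusted p = 0.999) and 0.18 ± 0.43 (adjusted p = 0.911, limma). The transcript of Acta2 is also found in developing and stressed heart muscle, so it does not mark smooth muscle alone.

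Markers of cell types were counted as well, all outside the set except Acta1, which is also listed among the skeletal muscle markers. They were chosen with earlier results of these data known, and the part of that choice in their shares was not tested. Of 19 further cardiomyocyte genes, 5 were detected on at least 1 array, where 17.3% of named genes were, and 3 on at least 3 arrays, or 15.8% against 5.80%, namely the calcium pump gene Atp2a2 on 11, the connexin gene Gja1 on 6 and the fatty acid binding protein gene Fabp3 on 3. Of 8 further atrial genes 0 were detected, with the natriuretic peptide gene Nppa and the sarcolipin gene Sln among them, and of 4 further ventricular genes only Hey2 was, on 2 arrays. Detection of the atrial light chains was thus not shared by these 8 atrial markers. Of fibroblast markers 3 of 12 were detected on at least 1 array, none on over 2, beside the same 17.3% of named genes. Of smooth muscle markers 1 of 7 was, Acta2 on 10 arrays, and of leucocyte markers 1 of 5, Cd14 on 1 array. Of endothelial and skeletal muscle markers 0 of 8 and 0 of 9 were detected. Other genes of skeletal muscle, counted in the further list above and not among these markers, were detected, namely Myl1 on 7 arrays and Actn3 and Myh8 on 2 each.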

How the data were processed

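Exosome RNA of 12 samples was measured on 12 arrays, 4 per group, grouped by their titles. The deposited scanner table gives, per the file headers, the intensity of each probe as the mean over its beads, background-subtracted by the authors and not normalized between arrays, and the authors' detection p-value, in steps of 1 in 798. Numbers and standard errors of beads were also deposited. The deposited intensity table normalized by the authors with cubic splines (array medians 5.23 to 5.27) was an alternative. The labels name GenomeStudio. The study left out 1 PDGF-BB sample, not identified in the sources used here, and all 4 are used here.

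Background was corrected with the negative control moments inferred from the detection p-values, and intensities were quantile normalized with an offset of 16 (neqc, limma 3.58.1, R 4.3.3) and put on the log2 scale. The 1099 probes (962 genes) with a detection p-value under 0.01 on at least 3 of 12 arrays were tested in 1 limma fit of the 3 groups, with Benjamini-Hochberg adjustment over all of them. The number of arrays limits the precision. Scripts were tested on simulated data. Permutation tests used 100000 resamples, or all 720 orders within a chip (scipy 1.17.1, Python 3.11.15), and plots matplotlib 3.10.9.

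Probes were named through the platform annotation, in which 23977 have 1 gene symbol and 1719 none, and 23961 matched the reference by gene identifier. Values per sample are given for probes that passed the filter and for the 4 light chain genes, and further contractile and cytoskeletal genes are named when a probe passed. The genes, the list of further genes and the markers were chosen with earlier results of these data known. Alternatives were other normalizations, offsets and filters, the chip and the replicate number as blocks, each chip alone, 2 groups alone, and arrays left out in turn.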

Additional observations from a re-analysis of the deposited data

Results flagged for a closer look

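In 3 of the 18 groups of 4 arrays examined, 1 array lay far from the others. Its gap to the nearest one, as a share of the group's range, exceeded Dixon's critical value. Normally distributed values exceed it in about 1 in 20 groups. For Myl7, PDGF-BB sample 3 stood at 6.48 on the log2 scale and the other PDGF-BB samples at 4.59 to 4.75, a gap of 0.911 of the range. For Myh6, PDGF-BB sample 3 stood at 5.28 and the others at 4.80 to 4.87, a gap of 0.864 of the range. For Ldb3, TGF-β2 sample 1 stood at 7.20 and the other TGF-β2 samples at 4.81 to 4.96, a gap of 0.937 of the range. In each of these groups the flagged array was the only one on which the probe was detected. The others lay close together near background, so the rate for normally distributed values need not hold here. PDGF-BB sample 3 had 1070 probes detected, the most of its group.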

How the results depend on the processing

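Of the 15 differences (5 probes, 3 comparisons), recomputed 336 times under 23 alternatives, 299 values kept their direction and 37 turned it, and 0 of the probes were called at an adjusted p under 0.05 under any alternative. Over all probes, calls appeared within chip 1 alone (24 for PDGF-BB minus control, 3 for TGF-β2 minus PDGF-BB) and without control sample 1 (2 and 1). For TGF-β2 minus control, Myl4 was 0.01 with the authors' spline table, 0.29 with a common median in place of the quantile step, 0.29 within chip 1 and 0.14 without both PDGF-BB sample 1 and control sample 1 (chosen after seeing the data). Myl7 was −0.05 with the spline table, −0.64 within chip 1 and −0.07 without both arrays, and Ldb3 was −0.01 within chip 2. For PDGF-BB minus control, Myl7 was 0.42 within chip 2, Ttn was −0.22 with a common median and −0.24 without both arrays, and Ldb3 was −0.03 with a common median and −0.02 within chip 2. For TGF-β2 minus PDGF-BB, Ttn was 0.35 with a common median, 0.11 within chip 2 and 0.48 without both arrays, and Ldb3 was 0.18, 0.02 and 0.13. The cause was not tested. The median difference of all 1099 probes for TGF-β2 minus PDGF-BB was 0.14 as reported and 0.28 with the spline table, and for PDGF-BB minus control it was −0.17 with a common median against −0.06.

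With 1 array left out in turn, the TGF-β2 minus control differences ranged from −0.15 to 0.18 for Myl4, −0.11 to 0.34 for Myl7, 0.02 to 0.22 for Myh6, 0.00 to 0.54 for Ttn and −0.07 to 0.70 for Ldb3. PDGF-BB minus control ranged from −1.31 to −0.25 for Myl4, −0.59 to 0.03 for Myl7, −0.09 to 0.14 for Myh6, −0.10 to 1.06 for Ttn and 0.40 to 1.07 for Ldb3. TGF-β2 minus PDGF-BB ranged from 0.23 to 1.30 for Myl4, 0.02 to 0.69 for Myl7, −0.01 to 0.19 for Myh6, −0.70 to 0.46 for Ttn and −0.85 to 0.13 for Ldb3.

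The genes detected on at least 3 arrays were 10 at a detection p under 0.05 (16.5% of named genes) and 3, Myl4, Myl7 and Ttn, at a detection p of 0 (2.27%), and 4 to 5 with 1 array left out. The 5 added at 0.05 were Tpm1, Mybpc3, Myom1, Xirp1 and Ankrd1. On all 4 TGF-β2 arrays 2 genes were detected at 0.05, and 1 to 2 with 1 array left out (2 without TGF-β2 sample 4). On all 4 PDGF-BB arrays 2 were detected at 0.05, and 0 to 1 with 1 array left out (1 without PDGF-BB sample 1). The shares of named genes were not computed for these counts per group or for any count with 1 array left out. These counts are therefore not read as results about the set. With detection on at least 6 arrays required, only Myl4 and Ttn had values.

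Nothing in the labels ties same-numbered samples to each other, and the replicate numbers were not used as pairs because not every pair correlated at over 0.1. Deviations of same-numbered samples correlated at −0.225 to 0.429 over 12 pairs, 7 of them over 0.1, with those of number 1 at 0.232 to 0.394 and those of number 3 at 0.366 to 0.429, and 5 of 12 arrays correlated best with their own number. With the replicate number as a block, 0 of the 5 probes were called in each comparison. Signal over background limits what can be said, since 24 of the 32 genes did not reach a detection p-value under 0.01 on any array. With no filter, all 25696 probes were fitted, those of undetected genes included, and 0 probes of the set were called in each comparison.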
